A study of Mus musculus with 4 samples.

Results

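The cells described here are lung macrophages that carried many transcripts of complement C1q and few of Trem2. They were chosen by counts of unique molecular identifiers (UMIs, each marking 1 captured RNA molecule). A kept barcode had at least 200 genes and at most 10% mitochondrial UMIs. A member had at least 10 UMIs of C1qa, C1qb and C1qc together, at most 2 of Trem2, Mmp12 and Gpnmb, at most 2 of Plet1, Ear1 and Slc7a2, and none of Cd3e, Cd3d, Cd3g and Cd79a. The rule found 203 cells among 9256 kept barcodes, of 10382 in all. The libraries labelled WT held 52 members of 2509 kept cells (WT 1) and 32 of 2415 (WT 2). The libraries labelled PD-L1 KO held 66 of 2270 (PD-L1 KO 1) and 53 of 2062 (PD-L1 KO 2).

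All mice were Balb/c and were given 4T1 cells by vein. 4T1 is a mammary carcinoma line of the mouse that settles in the lung by this route. In the WT group the 4T1 cells were wild type. In the PD-L1 KO group they lacked PD-L1, which binds and engages the inhibitory receptor PD-1, while the host cells measured here were not altered in either group. Leukocytes were enriched by CD45 from perfused, collagenase-digested lungs at day 14. The sources used here give neither the ages of the mice nor whether the 4T1 KO cells were 1 clone. The labels do not say whether libraries of a group came from separate mice, and p-values therefore speak only of how these libraries vary, possibly for technical reasons. The study's title names tumour PD-L1, myeloid PD-1, type I interferon and the recruitment of cytotoxic T cells.

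Macrophages of the lung are of several kinds. Alveolar macrophages sit in the air spaces and clear surfactant, and interstitial macrophages lie in the tissue around airways, vessels and nerves. Interstitial macrophages are known for making C1q, the recognition part of the classical complement pathway, for expressing the colony-stimulating factor receptor Csf1r, and for including a perivascular form high in Lyve1, Folr2 and Mrc1 and a form high in MHC class II. Trem2 is a lipid-sensing receptor of macrophages that often appears with Gpnmb and Spp1 in lipid-laden and tumour-associated cells.

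The members summed to 349755 UMIs in WT 1, 271524 in WT 2, 649417 in PD-L1 KO 1 and 446378 in PD-L1 KO 2, and their median UMIs per cell were 5334, 5990, 7275 and 6103 in the same order. The names of the deposited files carry the opposite condition to the sample labels for all 4 libraries. The labels were used: WT libraries and KO libraries below are those with the WT and PD-L1 KO labels, and every direction rests on these labels. A single WT 2 barcode held 107320 UMIs, which was 39.5% of that library's member sum. It carried 104 UMIs of Krt8, 96 of Krt18, 191 of Wfdc2 and 434 of Spp1 beside 204 of C1q, and none of Epcam. The doublet caller Scrublet did not mark it, and results that rest on it are given with and without it. Among the 203 members 49 held at least 10 UMIs of the neutrophil genes S100a8 and S100a9, which were 23.1% and 15.6% of members in the WT libraries and 21.2% and 34.0% in the KO libraries. Pairs of libraries shared at most 3 barcodes, and 1 of those was a member.

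The members were checked against the 5 markers named for them, of which C1qa was part of the rule. Levels are counts per 1e6 UMIs of a library's member sum (CPM). Apoe, a lipid carrier made by many macrophages, stood at 12963 and 14831 CPM in WT 1 and WT 2 and at 8424 and 6893 CPM in PD-L1 KO 1 and 2. The other kept cells, outside the C1q and alveolar gates, held 1329 to 2061 CPM. Adgre1, the macrophage surface protein F4/80, stood at 254, 232, 171 and 121 CPM in members (WT 1, WT 2, PD-L1 KO 1 and 2, an order kept below) against 29.7 to 40.4 CPM in the other cells. Mrc1, the mannose receptor CD206, stood at 575, 567, 239 and 128 CPM, above the 90.7 to 114 CPM of the other cells and below the 968 to 1128 CPM of the alveolar gate (at least 3 UMIs of Plet1, Ear1 and Slc7a2). Lyve1, the hyaluronan receptor of perivascular macrophages and lymphatic vessels, did not follow the label. It stood at 42.9, 81.0, 32.3 and 8.96 CPM in members and at 38.4, 64.5, 41.3 and 49.7 CPM in the other cells, so that only the WT libraries lay above, and only 18 of 203 members held a Lyve1 UMI.

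Csf1r, the receptor for the macrophage growth factor, followed the label. It stood at 772, 604, 556 and 502 CPM against 115 to 151 CPM in the other cells. All 10 general macrophage markers had a higher mean in members than in the other cells. Of the alveolar markers, Marco was at 0 in all 4 libraries and Siglecf at 0 to 2.24 CPM, against 69.8 to 114 CPM of Siglecf in the alveolar gate. The 10 T cell markers summed to 34.3 to 81.0 CPM against 1247 to 1554 CPM in the other cells. Cd3e, Cd3d and Cd3g of that list were at 0 by the rule, and Trac was at 0 beside them. The 10 neutrophil markers summed to 13292, 8522, 12098 and 16358 CPM in members and to 10814 to 23530 CPM in the other cells. Of 3 neutrophil genes without S100a8 and S100a9 (Csf3r, Cxcr2 and Retnlg), 48 members held at least 3 UMIs together. Some other lineages were not lower in every library either. Fibroblast markers summed to 692 CPM in WT 1 members against 485 CPM in its other cells, and plasmacytoid dendritic cell markers to 656 against 564 CPM in WT 2. Red cell and platelet markers, which include Pf4, summed to 1401, 1613, 407 and 361 CPM against 246, 678, 732 and 357 CPM. Since Lyve1 did not set the members apart, they are called C1q macrophages low in Trem2 here.

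**Figure D1:**
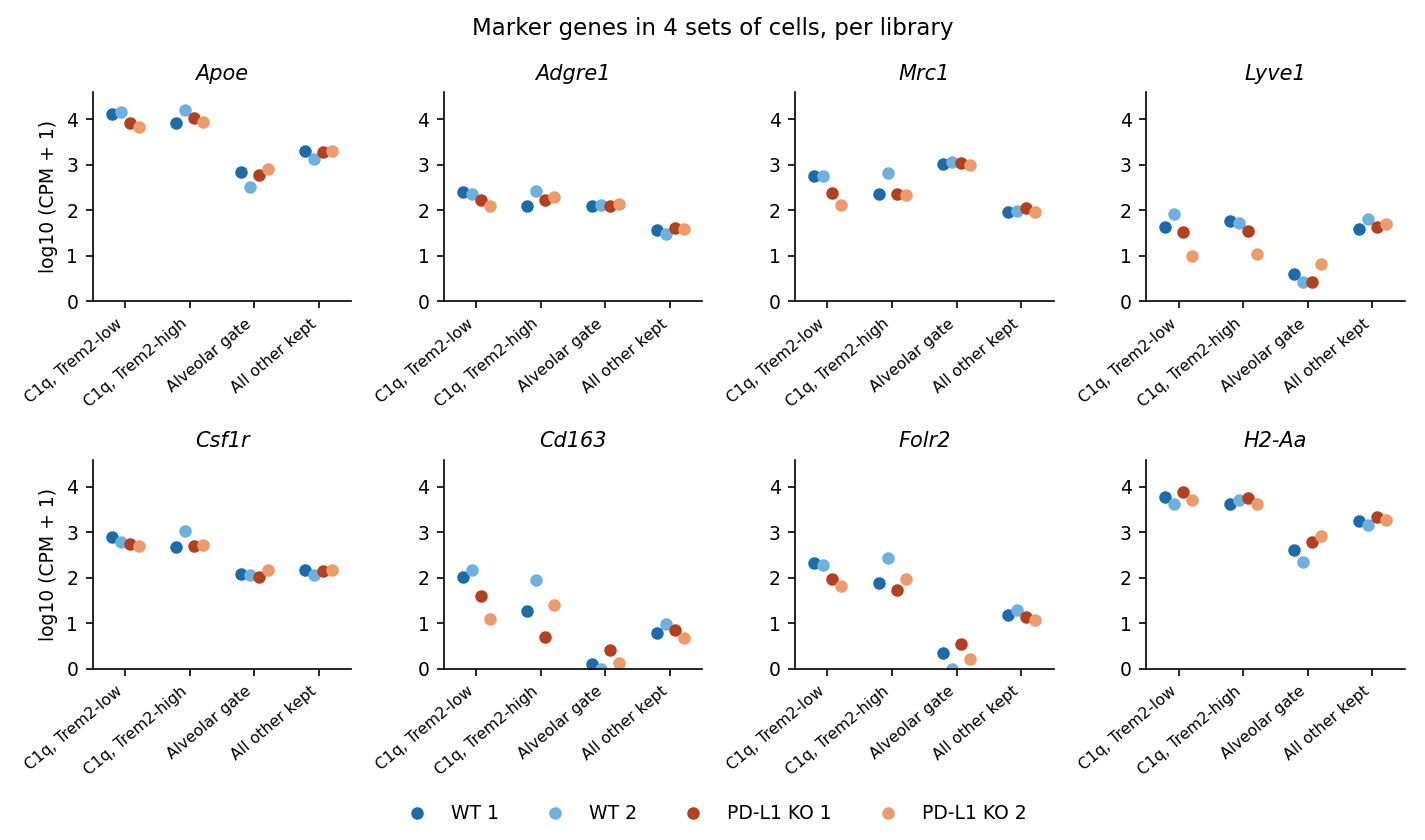
Level of 8 marker genes, as log10 of CPM + 1, in C1q macrophages low in Trem2, C1q macrophages high in Trem2, the alveolar gate and all other kept cells, with 1 point per library. Apoe, Csf1r, Folr2 and H2-Aa are higher in both C1q sets than in the alveolar gate, Mrc1 is highest in the alveolar gate, and Lyve1 is no higher in either C1q set than in the other cells in both KO libraries.

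The C1q macrophages with 3 or more UMIs of Trem2, Mmp12 and Gpnmb (226 cells: 50, 41, 69 and 66) passed the other gates and differ from the members by the rule. Their genes are given as a description, without a test. These cells were deeper, with median UMIs of 12520, 7343, 13430 and 10328. After each was thinned to 2000 UMIs, 159 of 223 (71.3%) would have met the limit of 2 UMIs, so the line between both sets depends on depth. Just inside that limit, 39 members with 2 such UMIs held 12139 CPM of Apoe and 367 CPM of Mrc1, and just outside it 36 cells with 3 held 14438 and 623 CPM. At the C1q limit, 12 members with 10 or 11 UMIs held 2572 CPM of Apoe and 26138 CPM of S100a8, and 17 cells with 8 or 9 held 2019 and 2389 CPM. No member lay at 2 UMIs of Plet1, Ear1 and Slc7a2, and no cell that met all other limits of the rule lay at 3. Of 3187 genes at 50 CPM or more in either set, 321 were higher in members in all 4 libraries and 390 were lower. These counts, and the pooled levels that follow, leave out the member barcode of 107320 UMIs. They keep all Trem2-high cells, also those over 50000 UMIs, and were not made with all member barcodes.

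Genes lower in members included further genes of lipid-laden macrophages. Spp1, the secreted matrix protein osteopontin, was at 143 CPM over pooled members and at 1436 CPM in the Trem2-high cells, 10.1 times the level. The member value leaves out the barcode of 107320 UMIs, which held 434 Spp1 UMIs against 230 in all other members. Without it, Spp1 by library stood at 88.6, 158, 142 and 181 CPM in members. The Trem2-high cells held 2669, 182, 397 and 1974 CPM, so the gap was small in WT 2. With that barcode, Spp1 in WT 2 was higher in members than in the Trem2-high cells (182 CPM). Fabp5, a fatty acid binding protein, was at 227 against 1542 CPM, and Arg1, the arginine-degrading enzyme arginase 1, at 37.3 against 182 CPM. Genes of dividing cells, namely Top2a (47.2 against 133 CPM), Birc5 (28.0 against 90.3 CPM) and Hist1h2ap (13.1 against 84.0 CPM), were lower as well. These levels also leave that barcode out of the members. With it, Top2a in WT 2 was higher in members, at the level given below, than in the Trem2-high cells (101 CPM). Ctsd, a lysosomal protease, was at 608 against 1931 CPM, and Fn1, fibronectin, at 112 against 322 CPM.

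The 12 genes with the highest ratio included many that neutrophils express, and the neutrophil stefin gene Stfa2l1 led them at 82.6 against 10.3 CPM. Fpr2, Pglyrp1, Hp, Mcemp1 and Trem1 were also among the 12. S100a8 was at 5064 against 1552 CPM, S100a9 at 7509 against 2244 CPM, and Retnlg at 304 against 64.7 CPM. At least 10 UMIs of S100a8 and S100a9 were found in 6%, 9.76%, 11.6% and 16.7% of the Trem2-high cells, in each library a lower share than in members. The part of neutrophil RNA in these differences was not tested. Ccl8, a chemokine for monocytes and T cells, was at 758 against 308 CPM and was the 1 chemokine among the 12 leading genes.

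The members made up 2.07% of kept cells in WT 1 (exact binomial 95% interval 1.55 to 2.71), 1.33% in WT 2 (0.908 to 1.87), 2.91% in PD-L1 KO 1 (2.26 to 3.68) and 2.57% in PD-L1 KO 2 (1.93 to 3.35). The intervals cover counting error only. The mean was 1.70% ± 0.529 (SD, n = 2) in the WT libraries and 2.74% ± 0.238 (SD, n = 2) in the KO libraries, with no overlap between groups. A two-sided exact permutation test gave p = 0.333, the smallest value that 2 libraries against 2 allow. Kept cells had median UMIs of 4541, 4700, 5248.5 and 5629, and the part of depth in the shares was not tested. The difference of means, 1.04 percentage points, was 0.495 without members holding UMIs of other lineages. It was 0.638 without members rich in S100a8 and S100a9, and 1.66 with at least 500 genes and at most 5% mitochondrial UMIs. Among all C1q macrophages the members were 51.0%, 43.8%, 48.9% and 44.5%. The means of 47.4% ± 5.05 and 46.7% ± 3.08 (SD, n = 2 each) differed by less than the spread between libraries (exact permutation p = 1).

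UMI counts were then summed over the members of each library and compared between the labelled groups with edgeR's quasi-likelihood test. In such sums, fewer cells with a transcript and less of it per cell cannot be told apart. Of 5341 genes tested, 1 passed an adjusted p of 0.05 and was lower in the KO libraries (0.0187% of genes), and 0 were higher. At an unadjusted p under 0.05 there were 397 genes (7.43%), of which 197 were higher (3.69%) and 200 lower (3.74%). Without the barcode of 107320 UMIs 1 of 5242 genes passed, again lower (0.0191%), and 458 had an unadjusted p under 0.05 (8.74%), 206 higher (3.93%) and 252 lower (4.81%). DESeq2, on the same sums, called 11 genes higher (0.206%) and 8 lower (0.15%), which is 0.356% of genes in all. Its higher genes were Dusp2, Irf7, Fam26f, Fabp5, Fcgr4, Ms4a4c, Plac8, Tgm2, Ly6e, Isg15 and Ms4a6d, and its lower genes were Cd209f, Mgp, Cd209g, Pf4, Stab1, Mrc1, Mgl2 and Dab2, several of them outside the rule for named genes and listed here because DESeq2 called them. The edgeR count was 177 without WT 1, 3 without WT 2, 88 without PD-L1 KO 1 and 70 without PD-L1 KO 2.

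The gene that passed was Cd209g, a C-type lectin of the DC-SIGN family (chromosome 8, 4134098 to 4137707, GRCm38). It stood at 114 and 118 CPM in WT 1 and WT 2 and at 12.3 and 8.96 CPM in PD-L1 KO 1 and 2. The log2 difference was -3.34 (SE 0.382, edgeR adjusted p = 0.0458), and it was -3.71 (SE 0.420, adjusted p = 0.0455) without the WT 2 barcode of 107320 UMIs. Over 22 alternative settings the adjusted p ran from 3.65e-09 to 0.701. Its 84 UMIs came from 9 cells, 4 and 2 in the WT libraries and 2 and 1 in the KO libraries. Cd209f, a neighbour of the same lectin family, stood at 37.2, 206, 4.62 and 6.72 CPM and did not pass in edgeR (log2 difference -4.29, SE 0.838, adjusted p = 0.248). Reads shared between members of this family could not be separated from the deposited counts.

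Many genes of resident and scavenging macrophages had negative differences between KO and WT libraries. Of the 25 scavenger and uptake receptors listed, 20 were tested. Only Cd209g of them passed, and 11 had both KO libraries below both WT libraries (20.9% of all 5341 genes did, and 21.2% of 5242 without the large barcode). Another 3 had both KO libraries above, and 8 of the 20 differences were positive (5 without the large barcode). The median log2 difference was -0.76, against -0.0044 for all genes tested, and -1.13 without the large barcode. The 10 markers listed for Lyve1-high macrophages had 9 members tested, none of which passed. All 9 had negative differences, with a median of -1.42 (-1.82 without the large barcode), and 8 lay below in both libraries. The tenth, Timd4, a receptor for dying cells, had too few UMIs for the test and was higher in both KO libraries, at 8.58 and 7.37 against 58.5 and 13.4 CPM. These lists were fixed with earlier results of these data known.

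Pf4, the chemokine CXCL4, which perivascular macrophages and platelets make, had the second smallest p in that direction. It stood at 1387 and 1609 CPM in the WT libraries and at 379 and 352 CPM in the KO libraries, without overlap. The log2 difference was -1.99 (SE 0.261, edgeR adjusted p = 0.0728), and -2.44 (SE 0.336, adjusted p = 0.102) without the large barcode. The UMIs came from 30, 27, 23 and 16 members, and the platelet genes Ppbp, Gp9 and Itga2b summed to 1 UMI in each WT library, 11 in PD-L1 KO 1 and 1 in PD-L1 KO 2. A Pf4 UMI was found, after thinning to 2000 UMIs, in 51.2%, 80.0%, 25.4% and 18.0% of members, and unthinned in 62.8%, 84.0%, 33.3% and 28.0%. In B cells, which should lack it, the thinned share was 1.97% to 4.37%. Median depths of the cells compared were 5782, 6883, 7599 and 6136 UMIs for members and 3489, 3899, 3346 and 5365 UMIs for B cells.

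Mrc1 stood at 575 and 567 CPM against 239 and 128 CPM (log2 difference -1.59, SE 0.334, edgeR adjusted p = 0.248). Stab1, the scavenger receptor stabilin-1, stood at 300 and 376 CPM against 119 and 69.4 CPM, and Cd163, which takes up haemoglobin bound to haptoglobin, at 103 and 151 CPM against 38.5 and 11.2 CPM. Mgl2, a galactose-binding lectin, stood at 643 and 652 CPM against 225 and 211 CPM. In each of these genes the groups did not overlap and the edgeR adjusted p lay between 0.219 and 0.248. Fcrls, an Fc receptor-like gene of resident macrophages (183 and 158 against 55.4 and 42.6 CPM), and Cp, the copper enzyme ceruloplasmin (91.5 and 118 against 30.8 and 15.7 CPM), followed the same order. Mgp, a matrix protein, also had a small p, but 97.6% of its WT 2 UMIs came from 1 cell. It stood at 140 and 457 against 32.3 and 17.9 CPM, and WT 2 was at 18.3 CPM without the large barcode.

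The marker Apoe had a log2 difference of -0.81 (SE 0.234, edgeR adjusted p = 0.424) and Adgre1 one of -0.69 (SE 0.297, adjusted p = 0.650), and Lyve1 one of -1.42 (SE 0.559, adjusted p = 0.630). Lyve1 rested on few cells. It was found in 2.33%, 4.00%, 9.52% and 2.00% of members thinned to 2000 UMIs, highest in PD-L1 KO 1. Unthinned, these shares were 11.6%, 16.0%, 9.52% and 2.00%. Folr2, the folate receptor beta, stood at 212 and 195 CPM against 93.9 and 65.0 CPM. F13a1, a coagulation factor subunit, stood at 203 and 258 CPM against 97.0 and 62.7 CPM. Gas6, a bridging ligand for uptake of dying cells, stood at 200 and 147 CPM against 87.8 and 44.8 CPM. The last 3 genes, and Selenop (1132 and 965 against 667 and 562 CPM), were picked from their list after their values were seen. C1qa, a gene of the rule, stood at 6344, 5130, 4550 and 5692 CPM with overlapping groups, but WT 2 stood at 8008 CPM without the large barcode, and the groups then did not overlap.

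**Figure D2:**
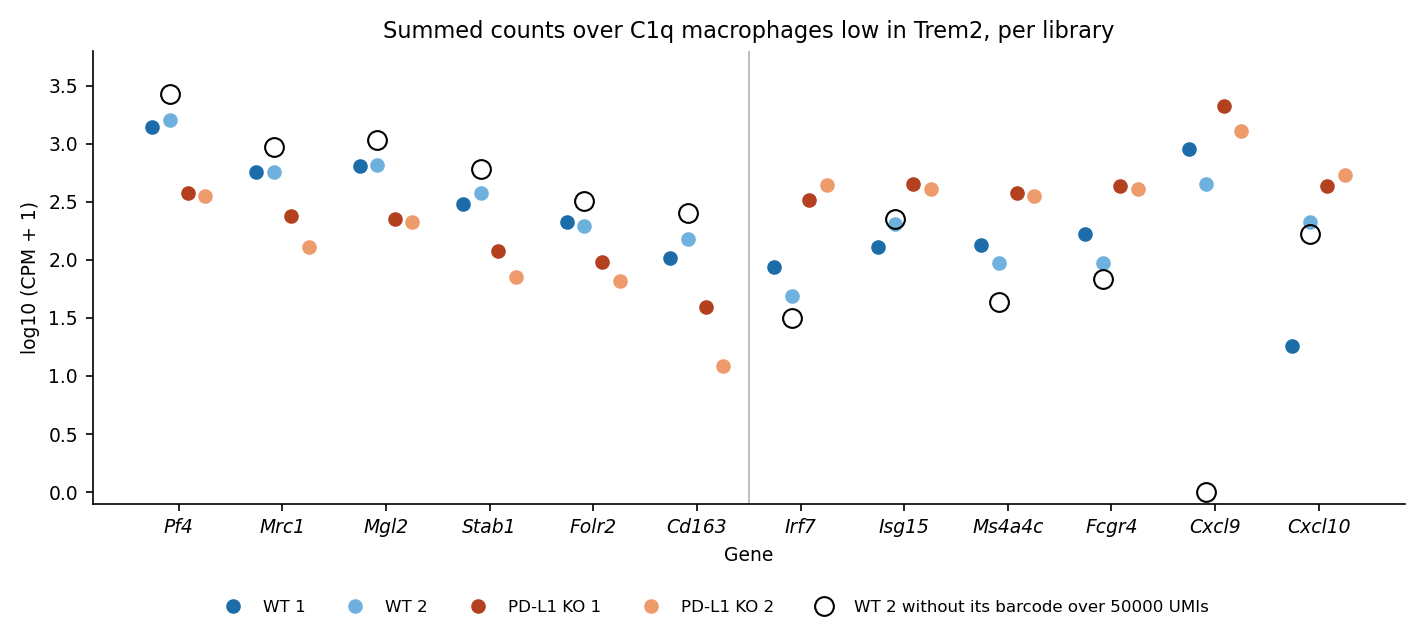
Level of 12 genes, as log10 of CPM + 1, in the member sums of the 4 libraries, with open circles for WT 2 without its barcode of 107320 UMIs. The 6 genes on the left lie lower and the 6 on the right higher in both KO libraries, and Cxcl9 in WT 2 is at 446 CPM with that barcode and at 0 without it.

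Interferon-response genes lay higher in the KO libraries, and none passed in edgeR. Type I interferons act on genes with an interferon-stimulated response element (ISRE), and interferon-gamma on genes with a gamma-activated site (GAS). Of the 68 type I response genes listed 55 were tested, and 50 had a positive difference, with a median of 0.55 (0.74 without the large barcode). Both KO libraries lay above both WT libraries in 31 of the 55, against 16.8% of all genes tested. Without the large barcode this held for 37 of 55, against 20.4% of all genes. Of the 25 interferon-gamma genes 19 were tested, 13 were positive and the median was 0.66. Without the large barcode all 18 tested were positive, with a median of 1.29.

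Irf7, the transcription factor that amplifies type I interferon production (chromosome 7, 141262706 to 141266481, GRCm38), had the smallest p among higher genes. It stood at 85.8 and 47.9 CPM in the WT libraries and at 328 and 444 CPM in the KO libraries. The log2 difference was 2.54 (SE 0.380, edgeR adjusted p = 0.137). Without the large barcode it was 2.60, and over 25 alternative settings it ran from 2.02 to 3.74, with an adjusted p from 1.70e-09 to 0.701. The UMIs came from 11 and 5 members in the WT libraries and from 40 and 34 in the KO libraries. Isg15, a ubiquitin-like modifier, stood at 129 and 203 CPM against 450 and 405 CPM (log2 difference 1.43, SE 0.308, edgeR adjusted p = 0.248).

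Isg15 was found in 13.95%, 16.0%, 36.5% and 34.0% of members after thinning to 2000 UMIs, and unthinned in 25.6%, 28.0%, 60.3% and 58.0%. Over all libraries it was found in 27.6% of thinned members and in 12.4% of thinned B cells, which respond to interferon too. By library the thinned share in B cells was 12.7%, 10.7%, 9.06% and 19.9%, and it lay closer to that of members in the WT libraries. Ms4a4c, a membrane protein induced by interferon, stood at 134 and 92.1 CPM against 374 and 356 CPM. Fcgr4, an activating receptor for IgG, stood at 166 and 92.1 CPM against 434 and 408 CPM. Zbp1, a sensor of nucleic acids, stood at 88.6 and 155 CPM against 217 and 253 CPM, and Serpina3g, a protease inhibitor, at 169 and 47.9 CPM against 333 and 354 CPM. None of these 4 genes had overlapping groups. Among the most abundant genes of the lists the differences were smaller, at 0.67 for Ifitm3 (SE 0.255, edgeR adjusted p = 0.630) and 0.99 for Ifi27l2a (SE 0.286, adjusted p = 0.424).

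Gbp2b, an interferon-induced GTPase, showed how far the large barcode acts on these genes. It stood at 174 and 265 CPM in the WT libraries and at 336 and 231 CPM in the KO libraries, and WT 2 stood at 30.4 CPM without that barcode. The barcode thus carried most of the WT 2 transcripts of this gene.

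Promoters of interferon-response genes are shown because members of this list lay higher together. RefSeq promoter sequences (GRCm38.p6) were searched on both strands for an ISRE core (GAAA, any 2 bases, GAAA) and a GAS core, TTCNNNGAA, in the 250 bases before the start. The ISRE core was found in 3.04% of 27025 promoters and in 3.44% of the 4278 tested genes with a promoter in that table. It was found in 18 of 45 tested type I response genes with a promoter, 7 of 13 interferon-gamma genes (53.8%) and 0 of 13 scavenger and uptake receptors. The GAS core was found in 7.18% of all promoters and in 6 of 13 interferon-gamma genes (46.2%). A match describes letters and is not shown to be a bound site, and no match was found for Irf7 or Ms4a4c in these windows. The capitals mark matches to the ISRE core in 3 promoters, at chr4:156200819-156201068 (Isg15, minus strand, 3 overlapping matches), chr12:26456453-26456702 (Rsad2, minus strand, match on the opposite strand) and chr5:92348890-92349139 (Cxcl10, minus strand).
Isg15: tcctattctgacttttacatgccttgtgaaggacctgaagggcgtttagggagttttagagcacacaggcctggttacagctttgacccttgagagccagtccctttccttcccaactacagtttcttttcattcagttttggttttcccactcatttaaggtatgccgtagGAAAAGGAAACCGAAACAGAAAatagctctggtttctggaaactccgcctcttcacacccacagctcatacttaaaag
Rsad2: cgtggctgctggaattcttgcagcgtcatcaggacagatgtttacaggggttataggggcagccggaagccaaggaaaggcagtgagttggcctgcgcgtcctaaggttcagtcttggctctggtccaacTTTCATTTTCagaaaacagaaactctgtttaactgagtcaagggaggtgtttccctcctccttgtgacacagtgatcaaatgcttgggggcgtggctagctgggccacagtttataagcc
Cxcl10: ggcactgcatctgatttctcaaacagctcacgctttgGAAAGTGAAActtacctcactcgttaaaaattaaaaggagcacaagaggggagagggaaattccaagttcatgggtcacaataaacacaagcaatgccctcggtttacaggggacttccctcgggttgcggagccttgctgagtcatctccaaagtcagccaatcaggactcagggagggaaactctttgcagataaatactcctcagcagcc
The first Isg15 match began 78 bases before the start and the Rsad2 and Cxcl10 matches 120 and 213 bases before it. Rsad2, the antiviral enzyme viperin, was the least separated of these genes in the members, at 17.2 and 66.3 CPM against 80.1 and 38.1 CPM.

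Chemokines that draw T cells through CXCR3 followed, with wide spread. Cxcl10 stood at 17.2 and 210 CPM in the WT libraries and at 433 and 533 CPM in the KO libraries (log2 difference 2.21, SE 0.708, edgeR adjusted p = 0.492). In PD-L1 KO 2, 58.8% of its UMIs came from 1 cell. Cxcl9 stood at 906 and 446 CPM against 2130 and 1279 CPM (log2 difference 1.36, SE 0.390, edgeR adjusted p = 0.424). All 121 Cxcl9 UMIs of WT 2 were those of the large barcode.

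The share of members with a Cxcl9 UMI, after thinning to 2000 UMIs, was 16.3%, 4.00%, 36.5% and 38.0%, and unthinned 25.6%, 4.00%, 46.0% and 52.0%. The thinned share in B cells was 1.15%, 0.397%, 2.76% and 6.83%, at the depths given above for Pf4. Among other chemokines of the list, Ccl5, Ccl4 and Ccl3 had overlapping groups. Ccl5 stood at 189 and 387 against 1178 and 206 CPM, Ccl4 at 194 and 1057 against 519 and 338 CPM, and Ccl3 at 85.8 and 527 against 436 and 42.6 CPM. Cxcl16, which binds CXCR6, did not overlap between groups, at 515 and 401 against 684 and 686 CPM. Of the 12 genes listed 7 were tested and 0 passed, with 5 positive and a median of 1.32 (0.86 without the large barcode).

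Other genes led by p and higher in both KO libraries had varied roles, and none passed in edgeR. Fam26f, a membrane channel protein of activated macrophages, stood at 51.5 and 25.8 CPM against 225 and 148 CPM. Tgm2, a protein cross-linking enzyme, stood at 114 and 177 against 391 and 432 CPM, and WT 2 at 42.6 CPM without the large barcode. Nr1h3, the oxysterol receptor LXR alpha, stood at 20.01 and 3.68 against 81.6 and 76.2 CPM. The classical monocyte list had 7 genes tested, 4 positive and 3 negative, with a median of 0.37 (0.49 without the large barcode), and its F13a1 went the other way without overlap, as given above. Of this list, Plac8 stood at 203 and 114 against 445 and 549 CPM, and Ly6c2, named after its values were seen, at 22.9 and 0 against 148 and 60.5 CPM. Cfb, complement factor B, rested on few UMIs (2, 0, 40 and 15), as did the elongation factor gene Ell2 (2, 2, 40 and 16). The matrix gene Spon1 stood at 31.4 and 40.5 against 122 and 96.3 CPM.

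Most antigen presentation genes had positive differences. All 9 tested MHC class II genes had a positive difference, with a median of 0.36 (0.25 without the large barcode), and 4 had both KO libraries above, against 16.8% of all genes tested. The class II chain H2-Aa stood at 5847 and 4254 CPM against 7596 and 5072 CPM, with overlap (log2 difference 0.36, SE 0.288, edgeR adjusted p = 0.840). Ctss, the protease that trims the invariant chain, stood at 1678 and 1241 against 2532 and 2583 CPM (log2 difference 0.85, SE 0.268, edgeR adjusted p = 0.488). Of 22 tested MHC class I genes 19 were positive and 12 lay above in both KO libraries, with a median of 0.37. Without the large barcode 20 were positive and 17 lay above, with a median of 0.73, against 20.4% of all genes lying above. Of 17 glycolysis genes 16 were positive and 11 lay above (16.8% of all genes did), with a median of 0.45 (0.67 without the large barcode). The lactate dehydrogenase gene Ldha stood at 306 and 302 against 379 and 589 CPM. None of these genes passed in edgeR.

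Of 21 tested immediate early genes, which tissue digestion can induce, 18 were negative, with a median of -0.42 (-0.66 without the large barcode). Both KO libraries lay below both WT libraries in 11 of them, against 20.9% of all genes tested. The 3 positive genes, among them Dusp2, had both KO libraries above, against 16.8% of all genes. Without the large barcode 2 genes of the list lay above. The part of immediate early genes in the other differences was not tested. Jun stood at 1741 and 2324 against 1458 and 551 CPM. The cell cycle list had a median of -0.74 with the large barcode and 0.32 without it. Top2a stood at 37.2 and 652 against 81.6 and 15.7 CPM, and WT 2 at 18.3 CPM without it. The heat shock list had a median of -0.44 and of 0.02 without the large barcode, and other medians were 0.10 for complement (-0.20 without it), 0.05 for lipid handling and lysosome (-0.07), 0.16 for macrophage lineage identity (-0.16) and -0.23 for iron (-0.12). The neutrophil markers had a median of 0.42 over 9 tested genes (0.07 without the large barcode), and their part in the differences of the other lists was not tested. Without the members with at least 10 UMIs of S100a8 and S100a9, 3 genes passed, 2 higher and 1 lower.

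**Figure D3:**
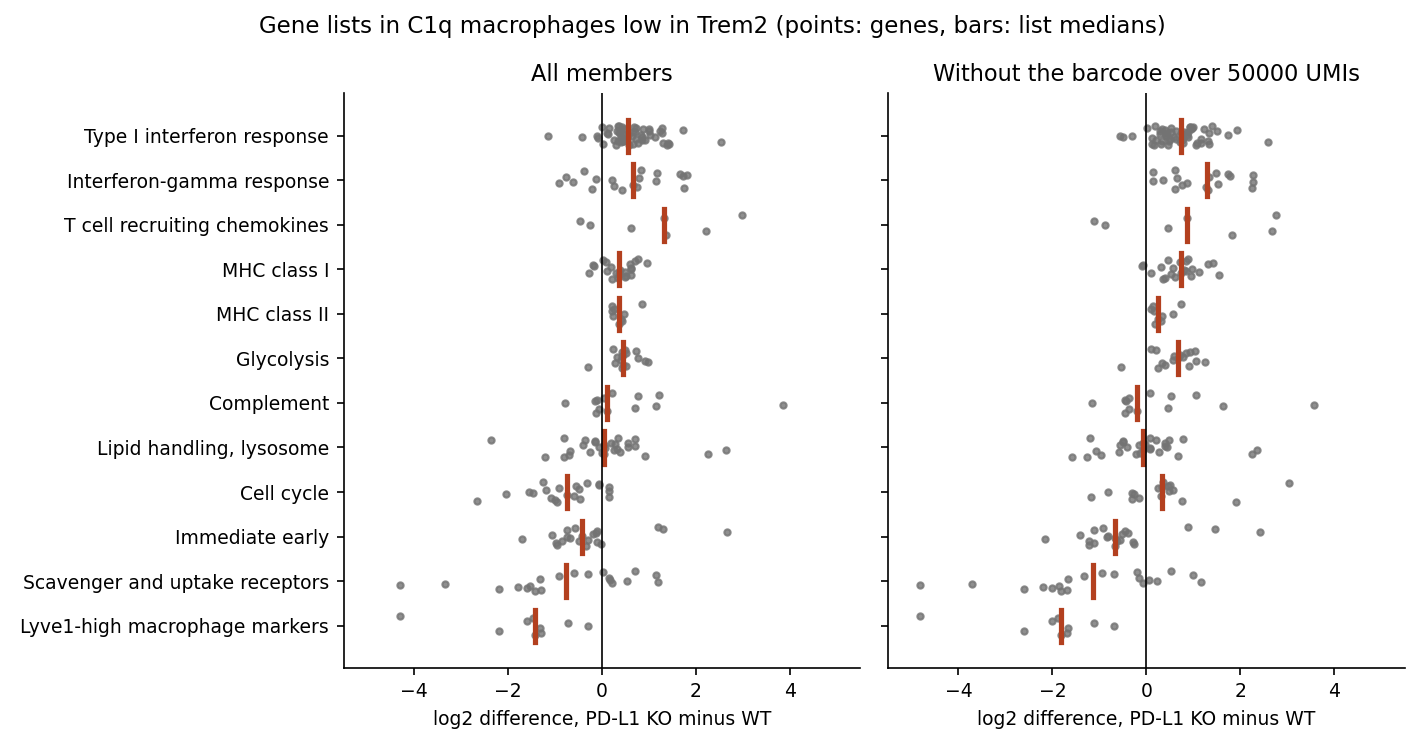
Log2 differences, PD-L1 KO minus WT, of the tested genes of 12 lists in the member sums (points) and the list medians (bars), with all members on the left and without the barcode of 107320 UMIs on the right. Medians of the interferon, MHC and glycolysis lists lie above 0 and those of the scavenger receptor and Lyve1-high lists below 0 in both panels, while the cell cycle median turns from -0.74 to 0.32.

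Single members differed widely in the Lyve1-high list (Lyve1, Folr2, Cd163, Timd4, Gas6, Fcna, Selenop, Mrc1, F13a1 and Cd209f). Per 10000 UMIs its median was 15.2 in WT 1 and 33.6 in WT 2, and 3.30 and 3.26 in PD-L1 KO 1 and 2, with a highest cell of 148 to 227 in each library. After thinning 181 members to 2000 UMIs (22 were shallower), 94 held 0 to 1 UMI of the list, 57 held 2 to 9 and 30 held 10 or more. These limits were set after the values were seen and cut a continuous range, not types. Members with 10 or more made up 23.3%, 28.0%, 14.3% and 8.00% of the 43, 25, 63 and 50 thinned members. Those with 0 to 1 made up 41.9%, 32.0%, 57.1% and 64.0%, again without overlap between groups.

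The 2 ends of this range carried different transcripts, given as means per 2000 UMIs. Members with 10 or more list UMIs held 66.4 UMIs of Apoe, 3.53 of Csf1r, 11 of Ccl8 and 2.27 of Stab1. Members with 0 to 1 held 11.5, 0.723, 0.553 and 0.0532 in the same order. Cxcl9 went the other way, with 0.0333 UMIs at the upper end and 3.07 at the lower, and Isg15 with 0.0333 and 0.904. The members with 0 to 1 also held more neutrophil RNA (24.4 UMIs of S100a8 against 2.27) and more of the monocyte genes Plac8 (0.766 against 0.0333) and Ccr2 (0.745 against 0.1). H2-Aa was at 11.7 and 9.07 UMIs, which differ less than these genes do. All are means over cells pooled from 4 libraries, with no test. The libraries gave 10, 7, 9 and 4 cells to the upper end and 18, 8, 36 and 32 to the lower. Differences between the ends and between the labelled groups cannot be told apart in these means.

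**Figure D4:**
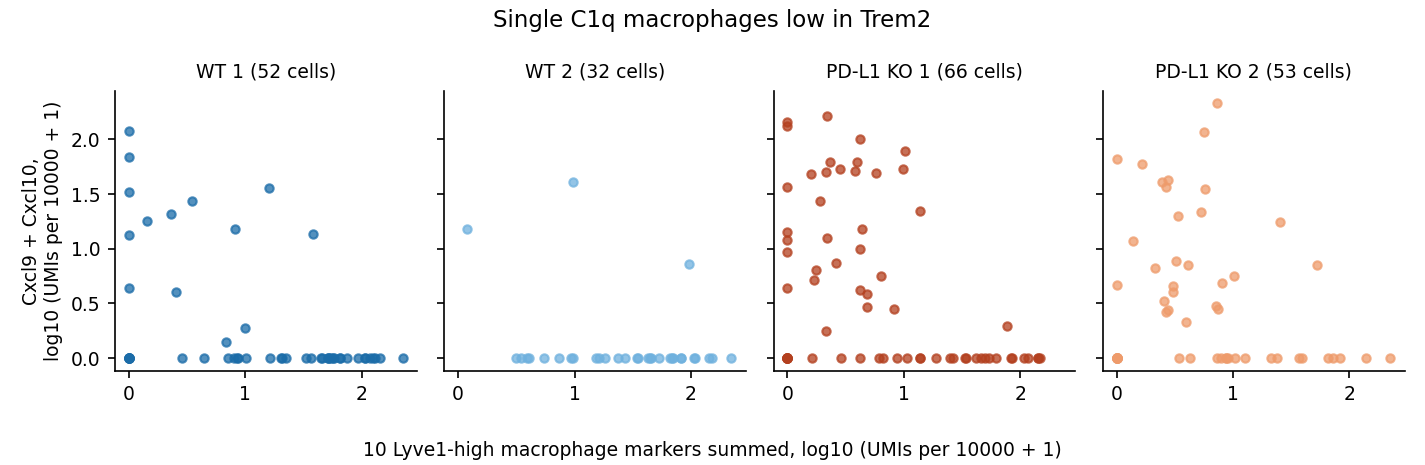
Summed UMIs of the 10 Lyve1-high markers (horizontal) against those of Cxcl9 and Cxcl10 (vertical), both as log10 of UMIs per 10000 + 1, with 1 point per member and 1 panel per library. Cells high on the vertical axis lie mostly at the left, and WT 2 holds 3 cells with any UMI of either chemokine.

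Across the 181 thinned members the Spearman correlation of the Lyve1-high list with Cxcl9 and Cxcl10 was -0.452, and -0.554, -0.121, -0.416 and -0.218 within the libraries in the usual order. That of the type I interferon list with both chemokines was 0.520, and 0.247 to 0.658 within libraries, though cells of a library share its depth and free RNA. The Lyve1-high list and the MHC class II chains were not ordered against each other (-0.00807 over 181 cells, and -0.422 to 0.117 within libraries). Per 10000 UMIs the median of the type I interferon list was 46.9 and 41.8 in the WT libraries and 83.2 and 71.5 in the KO libraries.

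**Figure D5:**
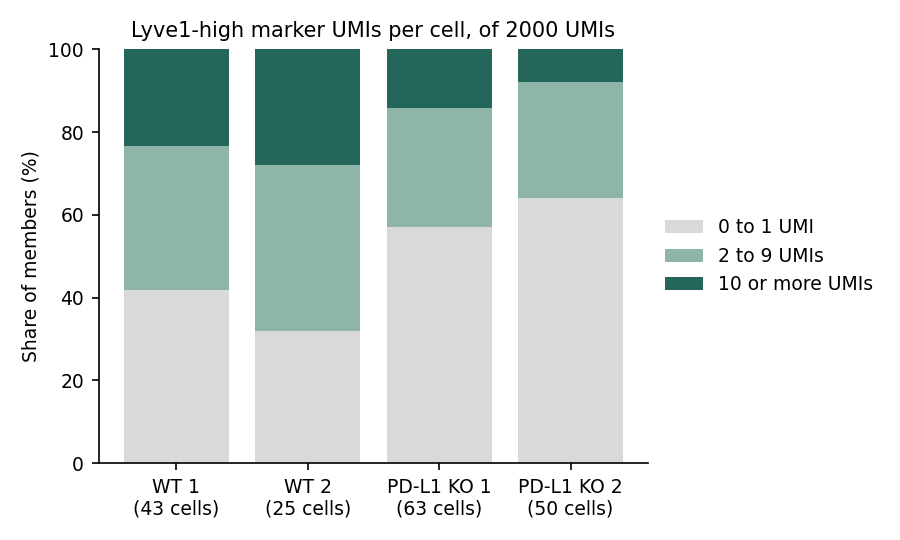
Share of thinned members, in percent, with 0 to 1, 2 to 9 and 10 or more UMIs of the Lyve1-high list of 2000 UMIs, per library. The share with 0 to 1 is 41.9% and 32.0% in the WT libraries and 57.1% and 64.0% in the KO libraries.

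The group difference was compared with that in the Trem2-high C1q macrophages and in the alveolar gate of the same libraries by an interaction term. With all barcodes 0 of 7213 genes passed against the Trem2-high cells and 0 of 9992 against the alveolar gate in edgeR, where 259 and 385 genes had an unadjusted p under 0.05. Without the barcodes over 50000 UMIs (1 member, 3 Trem2-high cells and 6 of the alveolar gate), 40 genes passed against the Trem2-high cells, 35 with a higher and 5 with a lower difference in members (0.490% and 0.0699% of 7150). Of these, Cldn5 had the smallest p, and it is an endothelial gene whose UMIs in members came from 7 cells. Cxcl10 was among the 40: the interaction term was 3.43 without those barcodes (edgeR adjusted p = 0.0270) and 3.24 with them (adjusted p = 0.637). In separate fits with all barcodes its log2 difference was 2.21 in members and -0.60 in the Trem2-high cells. Cldn5 and Cxcl10 are named here after their values were seen.

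Against the alveolar gate 14 genes passed without those barcodes, 4 with a higher and 10 with a lower difference in members (0.0407% and 0.102% of 9819). Named after their values were seen, Mrc1, Mgl2, Stab1 and F13a1 were among the 10. For Mrc1 the interaction term was -1.93 without those barcodes (edgeR adjusted p = 0.0137) and -1.53 with them (adjusted p = 1). In separate fits with all barcodes the Mrc1 log2 difference was -1.59 in members, -0.98 in the Trem2-high cells and -0.05 in the alveolar gate. The Lyve1-high list had a median of -1.17 in the Trem2-high cells, with 0 of 9 tested genes positive, and the scavenger and uptake receptors one of -0.67, with 4 of 20 positive. The 10 Lyve1-high markers summed to 916, 3023, 1057 and 998 CPM in the Trem2-high cells. WT 1 thus lay below PD-L1 KO 1 and 2, and only WT 2 lay above them. In the alveolar gate the scavenger and uptake receptors had a median of 0.05, with 7 of 13 positive. Irf7 had log2 differences of 2.54 in members, 0.74 in the Trem2-high cells and 1.98 in the alveolar gate, and none of its interaction terms passed (edgeR adjusted p = 0.940 and 1 with all barcodes). The type I interferon list had medians of 0.55, 0.45 and 1.00 in these 3 sets of cells, with 50 of 55, 54 of 60 and 61 of 61 tested genes positive. All 3 sets share the same 4 libraries.

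Cd274, the gene of PD-L1, was knocked out in the injected tumour cells and not in the host, so its level in members does not check the labels. It was present at 9 UMIs in WT 1, 6 in WT 2, 77 in PD-L1 KO 1 and 19 in PD-L1 KO 2. All 6 UMIs in WT 2 belonged to the large barcode.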

How the data were processed

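Each library was deposited by the authors as a 10x matrix of raw UMI counts for 31053 genes, which the submitters' processing notes say were mapped to mm10 with STAR in Cell Ranger 3.1.0. No source used here names the gene annotation release. The 4 libraries held 17618220 to 19635983 UMIs. Cells were kept and chosen by the limits given in the report, and member counts were summed per library. Sums were tested with edgeR 4.0.16 (filterByExpr, TMM, quasi-likelihood test, Benjamini-Hochberg over all tested genes, threshold 0.05) in R 4.3.3, with DESeq2 1.42.0 as an alternative. Group effects in 2 sets of cells were compared by an interaction with library as a factor. Shares were compared by exact permutation (scipy 1.17.1). Doublets were marked with Scrublet (scanpy 1.11.5), which marked 2 members; none was removed. Thinning drew 2000 UMIs per cell. The scripts were tested on simulated data.

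Named genes were the genes that passed and the 10 with the smallest p in each direction, the 5 markers and 13 genes of the rule, the most abundant members of each list, the 12 with the highest and the 12 with the lowest ratio to Trem2-high cells, genes passing an interaction, and Cd274. Members and lists were chosen with earlier results of these data known. Alternatives varied the test, scaling, filters, gates, depth and libraries; those on the large barcode and on S100a8 and S100a9 were added after seeing the data. Gene positions are GENCODE's for GRCm38, matched by Ensembl ID.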

Additional observations from a re-analysis of the deposited data

How the results depend on the processing

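With 2 libraries a group and 32 to 66 members a library, counts of genes past the adjusted threshold (1 in edgeR) depended on most settings, and the cause was not tested. The count was 19 with DESeq2, 0 with DESeq2's size factors in edgeR, 162 with no low-count filter, 2 and 18 with C1q limits of 5 and 20, 2 with no Trem2, Mmp12 or Gpnmb UMI, 4 with no Plet1, Ear1 or Slc7a2 UMI, 0 with at least 500 genes and at most 5% mitochondrial UMIs, 4 with no cell filter, 5 without members holding UMIs of other lineages, 3 without members rich in S100a8 and S100a9, and 10 after thinning. Leaving out 1 library gave 3 to 177 genes. Without the large barcode, DESeq2 called 36 and leaving out a further library gave 0 to 117 (102 without WT 1, 0 without PD-L1 KO 1 and 117 without PD-L1 KO 2).

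Library numbers are shared between groups, but the labels tie them to no animal or day. Deviations of same-numbered libraries correlated at 0.0934 (0.0729 without the large barcode) over 2 pairs. With the replicate block 71 genes passed, and 3 without the large barcode.

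The difference of effects against the Trem2-high cells (0 genes) became 38 with no low-count filter, 1 with no Trem2, Mmp12 or Gpnmb UMI, 20 with no Plet1, Ear1 or Slc7a2 UMI, 40 without barcodes over 50000 UMIs, and 4 to 159 without 1 library (159 without WT 1, 33 without WT 2, 4 without PD-L1 KO 1 and 13 without PD-L1 KO 2). Against the alveolar gate (0 genes) it became 6 with DESeq2, 36 with no low-count filter, 18 and 5 under the same 2 gates, 56 without members of other lineages, 14 without barcodes over 50000 UMIs, 16 after thinning, and 0 to 186 without 1 library (186 without WT 1, 43 without WT 2 and 0 without either KO library). The difference in the share low in Trem2 among C1q cells (-0.695 percentage points) was -4.27 to 2.88 without 1 library, and turned to 1.55 with no Trem2, Mmp12 or Gpnmb UMI, 0.394 with no Plet1, Ear1 or Slc7a2 UMI, 2.96 with the stricter cell filter and 0.252 without the large barcode. Mgp and H2-Aa turned in log2 difference: Mgp to 0.57 without WT 1 and the large barcode, and H2-Aa to -0.37 with no Trem2, Mmp12 or Gpnmb UMI and -0.090 without PD-L1 KO 1 and the large barcode.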

Other observations

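The remaining lists of the C1q macrophages low in Trem2 are given as values. Of 12 tested chemokines that recruit monocytes and neutrophils, 5 lay below in both KO libraries (20.9% of all genes tested did) and 1 above (16.8% did), with a median log2 difference of 0.01 (-0.34 without the barcode of 107320 UMIs). Of 21 tested inflammatory cytokine and NF-kB feedback genes 15 were positive, with a median of 0.57 (0.31 without it), and of 18 checkpoint ligand and suppressive enzyme genes 13 were positive, with a median of 0.30 (0.05 without it). None of these genes passed in edgeR.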
